A study of Homo sapiens with 12 samples.

Results

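S100 genes, vimentin and keratins, which mark the identity of a breast cancer line, are described here through 9 of the 6777 genes listed in the deposited tables: S100A6, S100A4, S100A10, S100A11 and S100A16 of the S100 family, vimentin (VIM), and the keratins KRT19, KRT8 and KRT18. They were chosen by symbol, and all 9 were listed in every library. The cells were MDA-MB-231, a human breast cancer line of the triple-negative kind with a mesenchymal appearance, grown in DMEM with serum. They received either 10 nM AZD0095, a small molecule that blocks the lactate exporter MCT4, or its solvent DMSO, for 4 h. Transcripts were measured by RNA-seq, and ribosome footprints, the stretches of mRNA left after RNase I digestion of a cycloheximide-treated lysate, by ribosome profiling. Each assay had 3 DMSO and 3 AZD0095 libraries, 12 in all. All groups are the same cell line with no genetic change, and whether replicates came from separate cultures is not stated, so p-values here reflect library-to-library spread that could be technical.

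S100 proteins are small proteins with a pair of EF-hand loops that, in most members, bind calcium and then expose a surface that grips partner proteins. S100A4 binds non-muscle myosin heavy chain and is known for its link to motility and metastasis, S100A10 has lost calcium binding and sits in a complex with annexin A2, and S100A6 binds annexins and CACYBP. Vimentin and keratins build intermediate filaments: vimentin assembles with itself in mesenchymal cells, while keratins are obligate heteropolymers in which a type II chain such as KRT8 pairs with a type I chain such as KRT18 or KRT19. Breast carcinoma cells that hold both kinds of filament are commonly described as partly mesenchymal.

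The S100 genes lie in the epidermal differentiation region of chromosome 1. On GRCh38, S100A6 (ENSG00000197956) lies at chr1:153534599-153535991, and S100A4 (ENSG00000196154) follows at chr1:153543621-153545806, 7.63 kb away. S100A16 (ENSG00000188643) lies at chr1:153606883-153613137, so these 3 genes fall within 78.5 kb. That stretch holds 6 protein-coding genes, and 5 of them were listed, S100A5 being the one that was not. S100A10 (ENSG00000197747, chr1:151982915-151993859) and S100A11 (ENSG00000163191, chr1:152032506-152037004) form a separate pair. VIM (ENSG00000026025) lies at chr10:17228241-17237593 and KRT19 (ENSG00000171345) at chr17:41523617-41528308. KRT8 (ENSG00000170421, chr12:52897191-52949860) and KRT18 (ENSG00000111057, chr12:52948855-52952906) have annotated spans that overlap at their ends. Reads from the shared stretch are uncertain, because no source used here says whether counting was strand-specific.

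S100A6 and S100A4, the closest pair of the described genes within the S100 region, share TATA-box letters at nearly the same distance from their starts, and S100A11 and VIM are shown beside them as genes without these letters. The 100 bases before the annotated start are given from RefSeq on GRCh38.p14, 5′ to 3′ on the gene's own strand. Capitals mark TATAA on the gene's strand and GGGCGG on the gene's strand, the letters of a TATA box and of a GC box. The stretches are chr1:153535992-153536091 (minus strand) for S100A6, chr1:153545807-153545906 (minus) for S100A4, chr1:152037005-152037104 (minus) for S100A11 and chr10:17228141-17228240 (plus) for VIM.
S100A6: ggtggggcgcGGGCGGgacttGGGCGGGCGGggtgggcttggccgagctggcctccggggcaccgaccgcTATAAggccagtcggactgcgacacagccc
S100A4: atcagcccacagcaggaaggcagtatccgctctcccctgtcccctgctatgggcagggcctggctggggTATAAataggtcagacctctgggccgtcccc
S100A11: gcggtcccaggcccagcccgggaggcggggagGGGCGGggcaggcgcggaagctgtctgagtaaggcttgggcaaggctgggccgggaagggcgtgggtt
VIM: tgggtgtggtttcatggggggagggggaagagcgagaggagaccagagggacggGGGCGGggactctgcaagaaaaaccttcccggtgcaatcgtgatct
TATAA began 30 bases before the start of S100A6 and 31 bases before that of S100A4. Among all 35116 promoter windows of the same length, 6.72% held it on the gene's strand, and the other 6 windows of the described genes did not. GGGCGG, searched on both strands, occurred 3 times in S100A6, where a pair of matches overlap, and once each in S100A11 and VIM. It was also in 1 of 2 start regions of S100A16, against 31.3% of all windows. TGANTCA, the AP-1 letters, was in 0 of the 8 windows (2.75% of all windows), as was CACCTG, an E-box read by SNAI and ZEB proteins (6.78% of all windows), both searched on both strands. The 8 windows include that of KRT8, not shown, whose start in the promoter table lies inside the annotated span of the gene. A match is a description of letters and not a bound site. KRT18 and KRT19 had no entry in the promoter table.

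Levels are in FPKM, fragments scaled to gene length and to a library's total, so that genes can be compared with each other within an assay. Libraries of a group correlated at r 0.989 to 0.997 for RNA and 0.854 to 0.920 for footprints. The footprint FPKM values move in steps that imply 123859, 107087 and 192324 counted footprints with DMSO and 141122, 217366 and 501351 with AZD0095. The third AZD0095 library is the deepest, and the other 5 range from 107087 to 217366. For the RNA libraries no depth could be recovered, and it is unknown. Among markers of the cell's type, 6 of 22 luminal epithelial ones were listed: EPCAM, CLDN4, CLDN7, AGR2, OCLN and SPINT2. ESR1, PGR, GATA3, FOXA1 and CDH1 were among the luminal markers that were not. Of 14 markers of immune, endothelial and stromal cells 0 were listed. Of 26 mesenchymal markers 17 were listed, with CDH2, SNAI1, SNAI2 and TWIST1 among those that were not. A listed gene exceeds 1 FPKM in all 12 libraries, so a gene that is not listed may still be expressed in some of them.

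Of the 9 genes, VIM had the highest RNA level in FPKM and S100A6 the highest footprint level in FPKM. VIM RNA stood at 2535, 2539 and 2492 FPKM in the DMSO libraries and at 2799, 2669 and 2760 in the AZD0095 libraries, which placed it 9th or 10th among all genes in each library. S100A6 RNA stood at 1620, 1728 and 1768 FPKM with DMSO and at 1860, 1716 and 1916 with AZD0095, at places 15 to 21. The other 7 genes were far lower, and the mean RNA level of S100A6 was 4.22 times that of the next, S100A10, in DMSO. After S100A10 (404 ± 16.02 FPKM, SD, n = 3) the DMSO order was S100A11 (349 ± 14.1), KRT8 (232 ± 8.42), KRT18 (217 ± 3.33), S100A4 (176 ± 7.14), S100A16 (139 ± 6.96) and KRT19 (129 ± 4.32). Each neighbour in that order was separate over the 3 libraries, except S100A16 and KRT19, whose ranges overlapped.

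In footprints S100A6 held the first place of all 6777 genes in each of the 6 libraries, a place known when the gene was chosen and given as a description. Its footprint level was 36008, 28763 and 32592 FPKM with DMSO and 31258, 32926 and 28398 with AZD0095. S100A6 alone thus held 2.49% ± 0.243 (SD, n = 3) of the summed footprint FPKM of the DMSO libraries, against 0.376% ± 0.0130 of the summed RNA FPKM. FPKM is divided by length, so this is not its share of the footprints counted. The next of the described genes, S100A10, had a mean 13.1 times lower, at 2473 ± 798 FPKM with DMSO. VIM followed at 2345 ± 156 FPKM, and its range overlapped that of S100A10. S100A11 (1393 ± 148) and S100A4 (1217 ± 200) overlapped each other, S100A16 stood apart at 763 ± 164, KRT18 (428 ± 41.8) and KRT19 (422 ± 93.4) overlapped, and KRT8 was lowest at 275 ± 15.2. The order of the assays was therefore not the same: VIM, first of the 9 in RNA, was below S100A6 and overlapped with S100A10 in footprints, and S100A4 passed both KRT8 and KRT18.

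**Figure D1:**
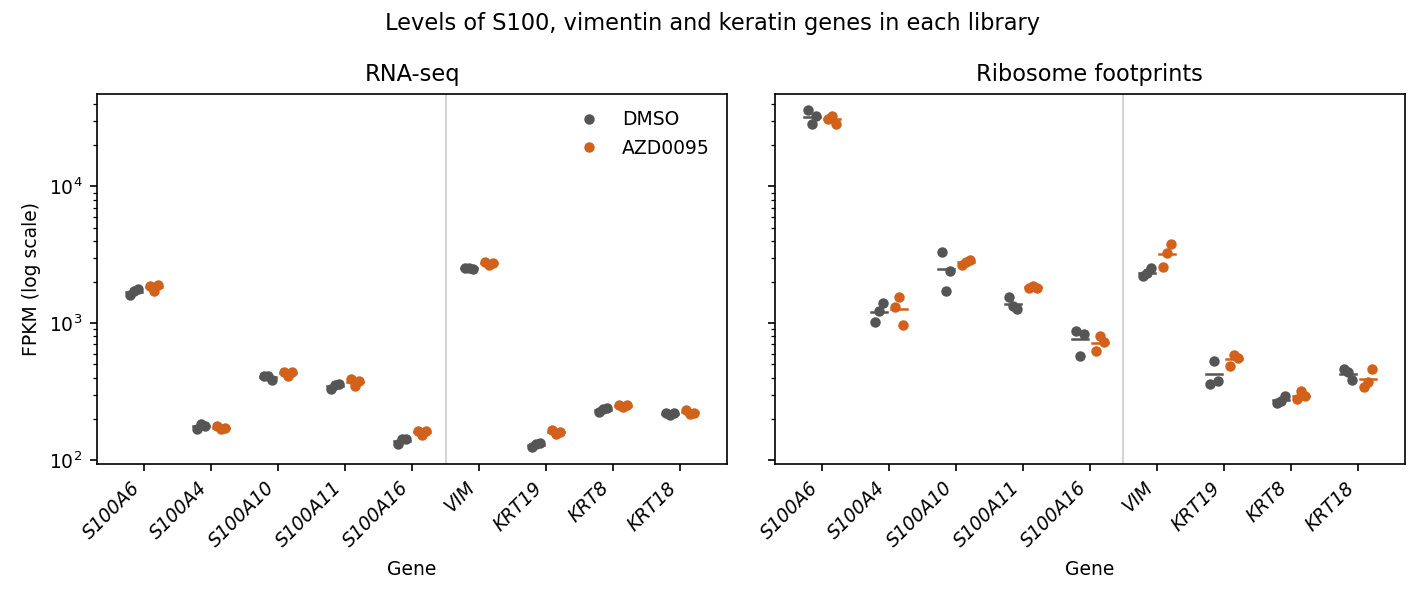
FPKM of the 9 genes in each library on a log scale, RNA-seq on the left and ribosome footprints on the right; points are libraries (3 DMSO, 3 AZD0095 per assay) and short bars are group means. S100A6 footprints sit between 28398 and 36008 FPKM, above every other gene. With DMSO the RNA points of a gene lie closer together than its footprint points. With AZD0095 this is reversed for S100A11 (coefficient of variation 5.40% in RNA, 1.34% in footprints) and alike for S100A10 (3.78% and 3.76%).

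Footprint to RNA ratios were higher for the 5 S100 genes than for vimentin and the keratins. The ratio of mean footprint to mean RNA FPKM in DMSO was 19.0 for S100A6, above 99.0% of all genes, which is a description, since its high footprint level was known when the gene was chosen. It was 6.90 for S100A4, 6.12 for S100A10, 5.51 for S100A16 and 3.99 for S100A11, between the 73.7 and 90.7 percentiles. Every S100 gene described was thus above the median of all genes, 2.43.

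Among the filament genes the ratio was 3.26 for KRT19, at the 65.0 percentile, and 1.97 for KRT18, at the 38.9 percentile. KRT8, the pairing partner of both, had a ratio of 1.18 at the 17.9 percentile, and VIM had the lowest of the 9, 0.930 at the 10.9 percentile. With AZD0095 the order of the extremes was alike, from 16.9 for S100A6 to 1.17 for VIM and 1.19 for KRT8. The assays were scaled separately, so a ratio has meaning only against other genes. The partner of S100A10, annexin A2 (ANXA2), had a ratio of 4.20, below that of S100A10.

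**Figure D2:**
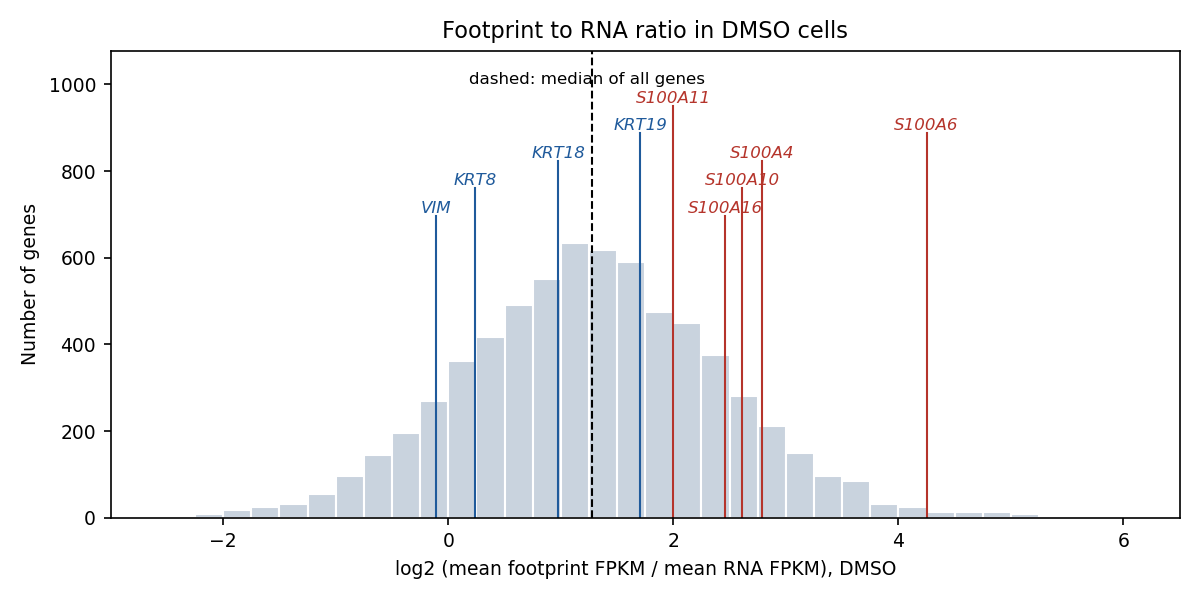
Histogram of the log2 ratio of mean footprint to mean RNA FPKM with DMSO over the 6777 genes, with vertical lines at the 9 genes (red S100, blue filament genes) and a dashed line at the median of all genes; 12 genes lie outside the plotted range. S100A6 is far to the right at 4.25, and VIM (-0.10) and KRT8 (0.24) are on the left.

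The footprint to RNA ratio varied with the length implied by the footprint values. The steps in the footprint values resolved into whole reads (tolerance 0.05 reads, all 6 libraries) for 1181 genes or 17.4% of those listed. The implied length of a gene is the shortest length tried that gave whole reads in all 6 libraries. It was not checked against the lengths the authors used, and may differ from them. Of the described genes, 5 came out whole, with implied lengths of 335 nucleotides for S100A4, 323 for S100A10, 347 for S100A11, 341 for S100A16 and 1481 for KRT8. S100A6, VIM, KRT18 and KRT19 did not, so their implied reads and lengths are not given. Over the 1181 genes the ratio fell with implied length (Spearman's rho across genes -0.47, a description, since genes of 1 library share its total). Footprint FPKM is itself divided by length, and the part of that division in the fall was not tested.

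Set against genes of like implied length, the ratios of S100A4, S100A10, S100A11 and S100A16 lay within the range of the others. S100A6 has no implied length and was not compared. Of 84 other genes with implied lengths of 273 to 397 nucleotides, S100A3 and S100A13 among them, the median ratio was 4.49, with quartiles of 2.48 and 8.15. In that window 23 genes had a higher ratio than S100A4, 27 a higher one than S100A10, 30 than S100A16 and 50 than S100A11. KRT8 was below the median of its own neighbours: 258 genes within 20% of its implied length had a median ratio of 1.87, and 60 of them were lower than KRT8.

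**Figure D3:**
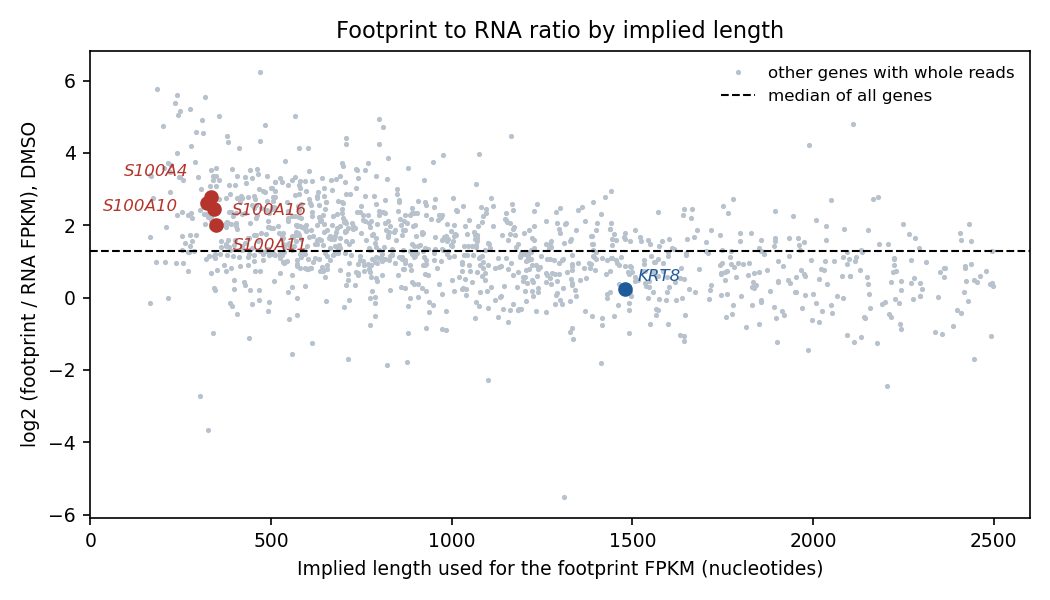
Log2 ratio of footprint to RNA FPKM with DMSO (vertical) against the implied length in nucleotides (horizontal) for the 1181 genes with whole reads. Red points are S100A4, S100A10, S100A11 and S100A16, the blue point is KRT8 and the dashed line is the median of all genes. S100A3 and S100A13 are among the grey points. The 4 red points fall inside the cloud of short genes, and KRT8 falls in the lower part of the cloud near 1481 nucleotides.

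KRT19 was the one gene of the 9 whose RNA change with AZD0095 passed in the main fit, which held no replicate term. KRT19, a type I keratin of simple epithelia, stood at 125, 130 and 133 FPKM in the DMSO libraries and at 166, 155 and 160 in the AZD0095 libraries. Every AZD0095 library was above every DMSO library. The mean was 23.9% higher, and on the scale of log2(FPKM + 1) KRT19 rose by 0.31 ± 0.05 (SE; limma, Benjamini-Hochberg adjusted p = 0.010). Across all genes 8.04% passed in this comparison, and 5.03% of all genes rose and 3.01% fell, against 1 of 9 that rose here and 0 that fell. In such bulk samples more cells of a kind and more RNA per cell cannot be told apart. Without the second DMSO library the adjusted p of KRT19 was 0.064, with a change of 0.31, and 100 genes passed in place of 545.

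The other 8 RNA changes did not pass in the main fit. S100A16 RNA was 131, 142 and 143 FPKM with DMSO and 163, 152 and 162 with AZD0095, a log2 difference of 0.20 ± 0.06 (limma, adjusted p = 0.070). VIM differed by 0.12 ± 0.04 (limma, adjusted p = 0.14). For both genes the groups did not overlap.

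KRT8, the type II partner of KRT18, was at 223, 234 and 240 FPKM with DMSO and at 253, 244 and 252 with AZD0095, again without overlap, and differed by 0.10 ± 0.05 (limma, adjusted p = 0.23). KRT18 itself was at 219, 213 and 219 FPKM against 233, 216 and 222, with overlapping groups and a difference of 0.04 ± 0.05. In all, 4 of the 9 genes (S100A16, VIM, KRT19 and KRT8) had AZD0095 libraries wholly above DMSO, and 17.7% of all genes did so. None had them wholly below, against 11.5% of all genes, so that the groups were separate for 4 of the 9 and for 29.2% of all genes.

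Among the remaining S100 genes the groups overlapped in RNA. S100A11 was at 333, 354 and 359 FPKM with DMSO and 388, 350 and 381 with AZD0095, and S100A10 at 413, 414 and 385 against 437, 410 and 440. Their differences were 0.10 ± 0.06 and 0.09 ± 0.05, and that of S100A6 was 0.10 ± 0.06, with limma adjusted p of 0.33 to 0.34 for these 3 genes. S100A4 was the one gene with a negative value, -0.03 ± 0.05, from 168, 182 and 179 FPKM with DMSO and 177, 168 and 172 with AZD0095. The median difference of the 9 genes was 0.10, against 0.01 over all genes. An unadjusted p under 0.05 was reached by 3 of the 9, against 24.2% of all genes.

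Several RNA differences were larger between the libraries numbered 1 than between the rest. The log2 difference within replicate number 1 and within numbers 2 and 3 was 0.41 and 0.26 for KRT19, 0.32 and 0.14 for S100A16, 0.20 and 0.05 for S100A6 and 0.22 and 0.03 for S100A11. For VIM it was 0.14 and 0.11, and for S100A4 it changed sign, from 0.07 to -0.08. The labels name no batch. With a term that set number 1 apart, S100A16 (limma, adjusted p = 0.012) and VIM (adjusted p = 0.023) passed beside KRT19 (adjusted p = 6.7e-04), in a fit in which 24.5% of all genes passed. From numbers 2 and 3 alone KRT19 passed with an adjusted p of 0.0030, S100A16 and VIM did not (both 0.084), and 20.6% of all genes passed.

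In footprints no change passed in any of the 6777 genes (0%), by limma, and 7.82% of all genes had an unadjusted p under 0.05. The highest difference of the 9 was that of VIM, at 2204, 2318 and 2513 FPKM with DMSO and 2586, 3248 and 3784 with AZD0095. It amounted to 0.44 ± 0.17 (limma, unadjusted p = 0.024, adjusted p = 0.63), and the groups did not overlap. The 3 AZD0095 values follow the order of the implied depths of their libraries, 141122, 217366 and 501351 footprints, while the 3 DMSO values do not, and the part of depth in this difference was not tested. S100A11, which binds annexin A1, was at 1559, 1346 and 1274 FPKM with DMSO and 1817, 1856 and 1811 with AZD0095, a difference of 0.40 ± 0.16 (unadjusted p = 0.031, adjusted p = 0.63), also without overlap. AZD0095 libraries lay wholly above DMSO for these 2 genes of the 9, and for 7.19% of all genes. They lay wholly below for 0 of the 9 and for 5.77% of all genes. The AZD0095 values of S100A11 rest on 89, 140 and 315 implied footprints and the DMSO values on 67, 50 and 85.

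KRT19 footprints differed by 0.39 ± 0.23 (limma, adjusted p = 0.73), from 359, 529 and 378 FPKM with DMSO and 490, 587 and 558 with AZD0095. The second DMSO library lay inside the AZD0095 range. The 95% confidence interval of the KRT19 footprint difference, -0.12 to 0.89, contains the RNA difference. KRT8 footprints were 262, 271 and 291 FPKM with DMSO and 278, 317 and 294 with AZD0095, and KRT18 footprints were 463, 438 and 382 against 341, 371 and 463. The groups of both genes overlapped, with differences of 0.11 ± 0.24 and -0.13 ± 0.23.

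S100A10, the partner of annexin A2, had the widest footprint spread of the 9 genes with DMSO (coefficient of variation 32.3%). Its footprint level was 3299, 1706 and 2415 FPKM with DMSO and 2676, 2806 and 2884 with AZD0095. The first and the second DMSO value rest on 132 and 59 implied footprints with exact Poisson intervals, at 95%, of 2761 to 3913 and 1298 to 2200 FPKM, which cover counting error only. Its difference of 0.22 ± 0.21 turned to -0.02 without the second DMSO library. S100A4 (1012, 1227 and 1412 FPKM with DMSO, 1311, 1552 and 965 with AZD0095) and S100A16 (876, 575 and 839 against 623, 809 and 725) overlapped between groups and differed by 0.05 ± 0.22 and -0.07 ± 0.22. The S100A6 difference was -0.07 ± 0.11, with a 95% confidence interval of -0.31 to 0.17. Of the 9 footprint differences 6 were positive, with a median of 0.11, against 53.1% of all genes and a median of 0.04.

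The footprint to RNA ratio, tested by the assay-by-treatment interaction over all 12 libraries, changed in 0 of 6777 genes (0%) by limma, and 8.53% had an unadjusted p under 0.05. VIM had the highest value, 0.31 ± 0.17 (limma, unadjusted p = 0.082), followed by S100A11 with 0.30 ± 0.15 (unadjusted p = 0.058). S100A16 had the lowest, -0.27 ± 0.23, then KRT18 with -0.18 ± 0.19 and S100A6 with -0.17 ± 0.14. For none of the 9 genes did the 95% confidence interval exclude 0, and the widest, that of S100A10, ran from -0.40 to 0.67.

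**Figure D4:**
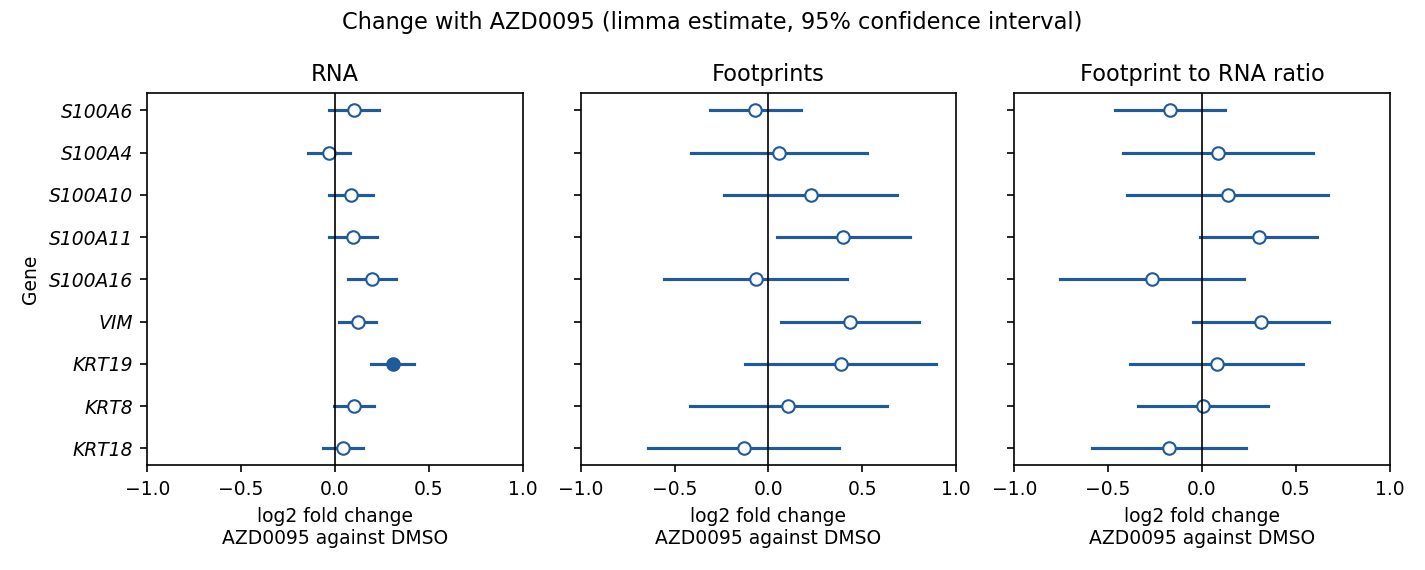
Log2 fold change of the 9 genes with AZD0095 against DMSO on the log2(FPKM + 1) scale for RNA, footprints and the footprint to RNA ratio; points are limma estimates from 3 libraries per group, bars are 95% confidence intervals and a filled point has an adjusted p under 0.05. KRT19 RNA (0.31) is the one filled point, and the intervals are wider for footprints than for RNA.

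Ratios within a library do not depend on the library's total, and 3 of them were compared: that of a keratin pair, that of vimentin to keratins, and that of S100A10 to its partner. KRT8 was 1.02, 1.10 and 1.10 times KRT18 in the RNA of the DMSO libraries and 1.08, 1.13 and 1.13 times with AZD0095. In footprints KRT8 was 0.565, 0.619 and 0.764 times KRT18 with DMSO and 0.813, 0.854 and 0.634 times with AZD0095. The groups overlapped in both assays (two-sided exact permutation tests, p = 0.3 and 0.2). VIM was 4.36 times the sum of the 3 keratins in RNA with DMSO and 4.33 times with AZD0095 (exact permutation p = 0.8). In footprints it was 2.09 and 2.58 times that sum (exact permutation p = 0.2).

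S100A10 was 0.240 times its partner ANXA2 in RNA in both groups (exact permutation p = 0.9). In footprints the values were 0.474, 0.243 and 0.337 with DMSO and 0.440, 0.336 and 0.384 with AZD0095 (exact permutation p = 0.7). ANXA2 footprints were at 7054 ± 106 FPKM with DMSO and 7313 ± 1146 with AZD0095 (SD, n = 3).

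As shares of summed FPKM, the 4 filament genes made up 0.684% ± 0.00912 of RNA with DMSO and 0.737% ± 0.0242 with AZD0095. In footprints they made up 0.267% ± 0.0172 and 0.359% ± 0.0704. In both assays the groups did not overlap, and p = 0.1 is the smallest value a two-sided exact permutation test of 3 against 3 can give. VIM makes up most of this share, at 4.36 times the summed keratins in RNA and 2.09 times in footprints with DMSO. The share is thus largely that of VIM and not of 4 genes alike. The 5 S100 genes made up 0.611% ± 0.0136 and 0.647% ± 0.0328 of summed RNA FPKM (exact permutation p = 0.3). Of summed footprint FPKM they made up 2.94% ± 0.310 and 3.01% ± 0.135 (exact permutation p = 0.9). These are not shares of the footprints counted, because FPKM is divided by length. After Benjamini-Hochberg adjustment over the 12 ratios and shares compared, exact permutation p-values were 0.514 to 1.0.

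Other S100 genes were scarce and did not pass the test. Of 14 further family members 3 were listed, and S100A8, S100A9, S100A14 and S100P were among those that were not. S100A2, which lies between S100A3 and S100A16, had 9.01 ± 1.14 FPKM of RNA but 243 ± 144 FPKM of footprints with DMSO, a ratio of 27.0 against 19.0 for S100A6. The SD of the log2 ratio was 1.05 for S100A2 and 0.18 for S100A6. Its RNA difference was 0.34 ± 0.12 (limma, adjusted p = 0.13). S100A13 (0.08) and S100A3 (-0.04) differed less.

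Of 13 partners of S100 proteins 11 were listed, with a median RNA difference of 0.09, and 1 rose, beside 5.03% of all genes. ANXA6, a calcium-dependent membrane-binding annexin, rose by 0.20 ± 0.05 (limma, adjusted p = 0.039), from 114 ± 1.16 to 130 ± 3.84 FPKM. Its call was lost without any single library except the first AZD0095 one, with adjusted p-values of 0.082 to 0.17, and with quantile normalization (0.052). ANXA2 differed by 0.09 ± 0.04 (limma, adjusted p = 0.26) and ANXA11 by 0.11 ± 0.05 (adjusted p = 0.27).

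Few further keratins were listed. Of 19 further keratins KRT7, KRT80 and KRT10 were listed, and the basal keratins KRT5, KRT14 and KRT17 were not. KRT80 was at 24.9 ± 1.76 FPKM with DMSO and 20.1 ± 1.06 with AZD0095, a difference of -0.29 ± 0.08 (limma, adjusted p = 0.056), opposite in sign to KRT19. KRT7, at 78.8 ± 3.10 and 71.8 ± 0.215 FPKM, differed by -0.13 ± 0.05 (adjusted p = 0.16), and KRT10 by -0.13 ± 0.09. None of these 3 passed, while the differences of KRT19, KRT8 and KRT18 were positive.

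Of 25 other intermediate filament and linker genes 13 were listed, with a median of -0.01, and 1 rose and 1 fell, beside 5.03% and 3.01% of all genes. Desmoplakin (DSP), which ties keratin filaments to desmosomes, rose by 0.46 ± 0.07 (limma, adjusted p = 0.0096) from 10.6 ± 0.200 to 15.0 ± 0.687 FPKM. Lamin B1 (LMNB1), a filament of the nuclear lamina, fell by 0.42 on the log2 scale (SE 0.06, adjusted p = 0.0079) from 77.5 ± 4.24 to 57.8 ± 2.73 FPKM. LMNB1 footprints had the other sign, 0.74 ± 0.34 (limma, unadjusted p = 0.051, adjusted p = 0.64). Without the second DMSO library both calls were lost (adjusted p = 0.058 for DSP and 0.051 for LMNB1), as was that of LMNB1 without the second AZD0095 library (0.053). EVPL differed by 0.33 ± 0.11 in RNA (limma, adjusted p = 0.13).

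Some epithelial junction genes and some mesenchymal genes rose with AZD0095. Of 22 luminal epithelial markers 6 were listed and 3 rose: the tight junction genes OCLN, by 0.65 ± 0.08 (limma, adjusted p = 0.0037), CLDN4, by 0.50 ± 0.09 (adjusted p = 0.013), and CLDN7, by 0.42 ± 0.08 (adjusted p = 0.016). Across all genes 5.03% rose. AGR2, named after its value was seen, differed by -0.22 (limma, adjusted p = 0.36). Footprints had the other sign for OCLN (-0.35 ± 0.57) and CLDN4 (-0.57 ± 0.36) and the same sign for CLDN7 (0.66 ± 0.51), none of which passed, and the luminal list had a footprint median of -0.18 and a ratio median of -0.57. OCLN passed without each library in turn, with an adjusted p of at most 0.038. CLDN4 lost its call without the second DMSO library (0.060) or the second AZD0095 library (0.056), and CLDN7 without any of 4 libraries (0.051 to 0.076). Of the 17 listed mesenchymal markers, which do not include VIM, 2 rose, again beside 5.03% of all genes.

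ITGA5, the fibronectin receptor subunit, rose by 0.69 ± 0.10 (limma, adjusted p = 0.0083; 0.051 without the second AZD0095 library). MSN, which links membrane to actin, rose by 0.19 ± 0.04 (adjusted p = 0.042; 0.059 after median centring, and 0.090 to 0.16 without any 1 of 5 libraries). CAV2 differed by 0.19 ± 0.08 in RNA (limma, adjusted p = 0.20) and by -0.49 ± 0.39 in footprints (limma, adjusted p = 0.80). The mesenchymal list had a median of 0.08 and the luminal list one of 0.33, against 0.01 over all genes. These medians and the counts that rose are a description, since the lists were chosen with earlier results of these data known. The luminal median rests on the 6 of 22 genes that were listed. None of the 6 listed basal markers passed, with EGFR at -0.29 ± 0.09 (limma, adjusted p = 0.11). ITGB4 (0.27 ± 0.13, limma, adjusted p = 0.25) and LAMB3 (0.06 ± 0.10, adjusted p = 0.75) had the other sign.

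**Figure D5:**
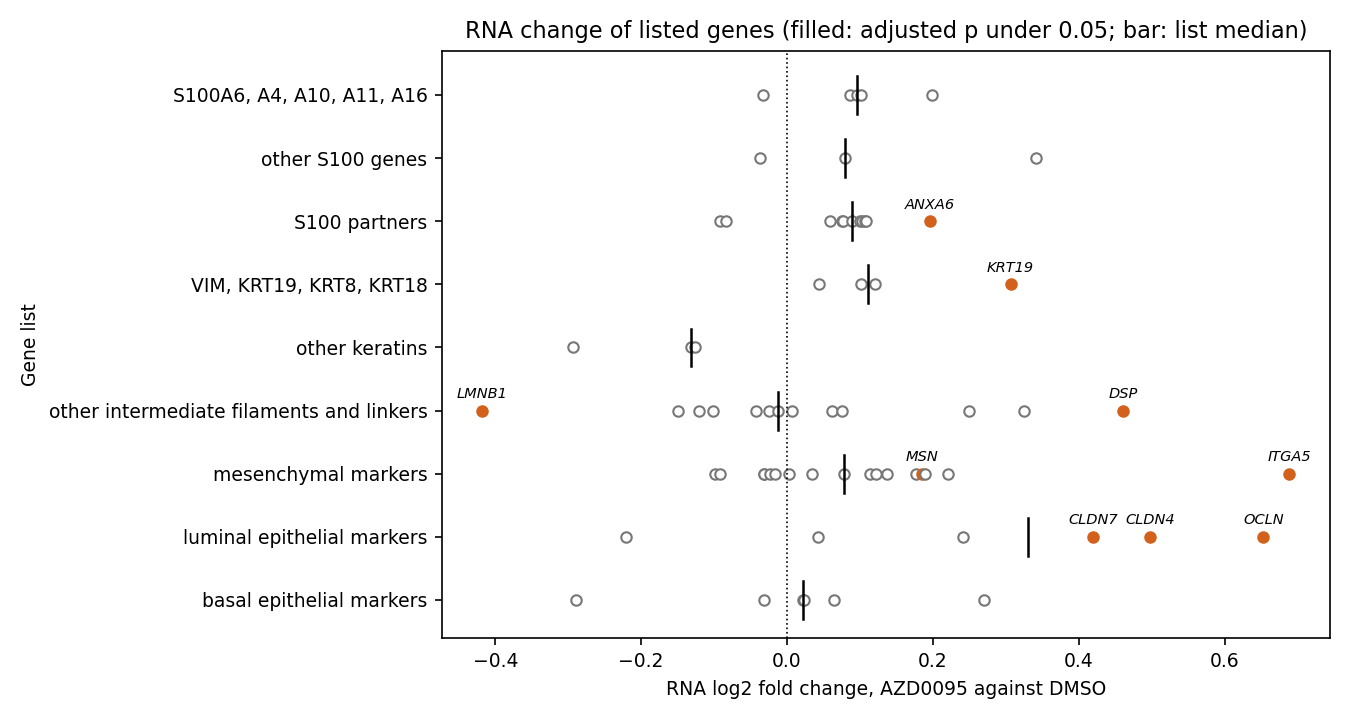
RNA log2 fold change with AZD0095 against DMSO for each listed gene of 9 lists; points are limma estimates, filled points have an adjusted p under 0.05 and carry the gene's name, and bars are list medians. KRT19 is the one filled point among the 9 genes described, and the luminal list has the highest median, 0.33, from 6 listed genes.

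By Pearson's r of log2(FPKM + 1) over the 6 RNA libraries, which share treatment and library totals, the genes most like S100A6 were CYC1 (cytochrome c1, r = 0.98), LGALS1 (galectin-1, 0.98) and RPS15 (a ribosomal protein, 0.97). S100A11 was in place 12 of 6776 for S100A6 (0.96) and KRT8 in place 54. S100A4, the nearest of the described genes on the chromosome, was in place 2641 (0.27). For VIM the most alike were FAM174A, GIT2 and DGKA (r = 0.99 to 1.00 after rounding), and KRT19 was in place 119 (0.95).

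For KRT19 they were FDFT1 (squalene synthase, r = 1.00 after rounding), IL6 (a cytokine, 0.99) and OTULINL (0.99). FDFT1 was at 76.0, 79.1 and 79.5 FPKM with DMSO and 99.4, 93.3 and 96.5 with AZD0095, groups as far apart as those of KRT19. S100A16 was in place 133 for KRT19, VIM in place 192 and KRT8 in place 278. An r over 0.9 was reached by 84 genes for S100A6, 331 for VIM and 423 for KRT19, so likeness at this level is common among 6 libraries.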

How the data were processed

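The authors deposited FPKM values for each of the 12 libraries. Software used was STAR, Bowtie2 and fastp with build hg38, per the submitters' processing notes; for versions, read counter and FPKM formula the entry is "not given in the sources used here". RNA libraries are titled total RNA, with polyadenylated RNA as the molecule, which was not settled. Each table held 6785 rows with a lowest value of 1.002 FPKM; 8 repeated entries were removed. Reads shared with paralogs or pseudogenes, as for VIM, KRT8, KRT18 and KRT19, may have been split in ways not given here.

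Values were tested as log2(FPKM + 1), which understates changes of low genes, with limma 3.58.1 (trend, R 4.3.3), keeping genes whose mean FPKM was 1 or more, Benjamini-Hochberg adjusted over 6777 genes and called under 0.05. On simulated data the RNA fit recovered 74% of changes of 0.5 and 96% of changes of 1. The footprint fit recovered 0%, 4%, 28% and 56% of changes of 0.5, 1, 2 and 3, and the ratio fit 0%, 28%, 66% and 86%. False calls among unchanged genes were 13 for RNA, 2 for footprints and 26 for the ratio, with 6777 genes simulated each time. Implied footprint depth was recovered from steps in FPKM. Members and lists were chosen with earlier results of these data known. Besides the 9 genes, the text names from each list the 3 genes with the smallest RNA p, and the 3 genes most like S100A6, VIM and KRT19; other names state whether a gene was listed or were chosen after their values were seen. Promoters came from RefSeq (7 of 9 genes matched). Alternatives were another pseudocount (0.1, 5), filter (5, none), scaling (median centring, quantile normalization), replicate terms, leaving out each library, and, added after seeing the data, replicates 2 and 3 alone.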

Additional observations from a re-analysis of the deposited data

How the results depend on the processing

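For RNA, 545 genes passed, 100 to 1112 when 1 library was left out, and 0 or 1 of the 9 described genes. The same replicate numbers gave deviations that correlated at 0.62, 0.086 and 0.49 in RNA, against -0.57 to 0.30 for unlike numbers. No label states a pairing, so the main fit held no replicate term, and whether equal numbers pair the RNA libraries is not settled. With the replicate block 1622 genes passed (23.9%) and with number 1 as a separate term 1660, 3 of the 9 in each. From replicates 2 and 3 alone, chosen after seeing the data, 1395 passed. In the block fit S100A16 (limma, adjusted p = 0.017) and VIM (0.031) passed. Footprint calls were 0 under each alternative run, and ratio calls 0 to 4 when 1 library was left out. Footprint differences changed sign when 1 library was left out for S100A6 (-0.15 to 0.0087), S100A4 (-0.10 to 0.24), S100A10 (-0.018 to 0.46) and S100A16 (-0.26 to 0.043). Ratio differences did so for S100A4 (-0.068 to 0.27), S100A10 (-0.10 to 0.37), KRT19 (-0.027 to 0.25) and KRT8 (-0.045 to 0.050; -0.042 with median centring). So did the footprint share of the S100 genes (-0.0939 to 0.210 percentage points) and of S100A6 (-0.141 to 0.0976), the log2 RNA ratio of VIM to keratins (-0.034 to 0.0093), and that of S100A10 to ANXA2 in RNA (-0.023 to 0.012) and footprints (-0.055 to 0.43). The causes were not tested. The RNA differences of the 9 genes had the same sign under each alternative run. The median gene with whole reads had 5 to 26 implied reads per library.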

Other observations

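Among the mesenchymal markers, FN1, which encodes fibronectin, the ligand of the ITGA5 integrin, had a footprint to RNA ratio of 0.220 with DMSO, lower than that of VIM and at the 0.192 percentile of all genes, and 0.591 with AZD0095, at the 2.61 percentile. TNC was also low with DMSO (0.229, at the 0.221 percentile) but not with AZD0095 (1.44, at the 22.4 percentile). TGFBI (7.96), CAV2 (7.37) and LGALS1 (6.93) were at the other end with DMSO at the 93.2, 91.8 and 90.7 percentiles. The ratio fell with implied length, and the part of length in these values was not tested. These genes were chosen after their values were seen. In the limma fit of the ratio, in which 0 of 6777 genes were called and 578 had an unadjusted p under 0.05, the change with AZD0095 passed for none of these genes.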
